A study of Mus musculus with 42 samples.

Results

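The genes described here encode the subunits of the mitochondrial respiratory chain and of the ATP synthase in the nuclear genome. They were taken by symbol, as every listed gene whose name begins with Nduf and a subunit letter and number, is Sdha, Sdhb, Sdhc or Sdhd, or begins with Uqcr, with Cox and a number from Cox4 to Cox8, or with Atp5, and names marked as pseudogenes were left out. This gave 84 of the 26653 genes listed for each tissue, namely 37 of complex I, 4 of complex II, 8 of complex III, 18 of complex IV and 17 of the ATP synthase. The rule itself uses names alone, though it was chosen with earlier results of these data known. The names also bring in genes that are not structural subunits of the complex they are named for: Ndufa4 is now placed in complex IV, Cox7a2l helps join complexes III and IV, and Atp5s and Atp5sl are not parts of the ATP synthase. Cyc1, a complex III subunit, falls outside the names and was counted with the electron carriers.

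The samples were polyA RNA from male mice, either wild type or homozygous for a knockout allele of Tug1 (Tug1_tm1.1Vlcg), a long noncoding RNA locus, on a C57BL/6J background (labelled as N3 with no Neo). In the knockout a lacZ reporter stood in place of the body of Tug1, downstream of the endogenous promoter and first exon, so every knockout group also carried lacZ, and the gene body was missing from all cells of the animal. Of the 42 samples, 22 were wild type and 20 knockout: 4 and 3 from testes, 3 and 2 from prostate, and 3 and 3 from each of heart, liver, spleen and eyes and from embryonic fibroblasts (MEFs), which were primary cells at passage 2 from male embryos of the same litters at E14.5. The organs came from adult mice, and their ages in weeks at RNA sampling are not given in the sources used here. Tug1 itself lay between 11.2 and 27.7 FPKM in the wild-type groups and between 0.00753 and 0.402 FPKM in the knockout groups.

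The values are FPKM, fragments scaled to the length of the transcript and to the size of the library, and the deposited table holds 1 value for each genotype and tissue, with the samples of a group already combined. No value per mouse was used, so neither the spread between mice, and with it the error of every difference below, nor the sequencing depth is known, and no difference was tested. A change is given as log2 of knockout over wild type after adding 0.1 FPKM to both, which understates the change of low genes, and only for genes with at least 1 FPKM in either genotype. In the main settings, each count over all members that were higher or past a limit is set beside the same over all genes of that tissue. In each of the 7 tissues most markers of the label reached 1 FPKM. These were 6 of 6 photoreceptor genes in eyes, 7 of 7 cardiomyocyte genes in heart, 6 of 6 spermatid genes in testes and 6 of 6 prostate epithelium genes in prostate. So did 4 of 4 B cell genes in spleen and 5 of 5 fibroblast genes in MEFs. In liver 5 of 6 hepatocyte genes did, and Serpina1c is listed at 0 in both genotypes with too little usable data. Reaching 1 FPKM does not by itself set a tissue apart, as all 5 fibroblast genes did so in every tissue and all 4 B cell genes in heart. In the wild type, fibroblast genes summed to 3965 FPKM in MEFs and at most 163 elsewhere, and B cell genes to 1489 in spleen and 30.6 in heart.

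Complex I takes electrons from NADH and complex II from succinate, and both pass them to coenzyme Q. Complex III moves them on to cytochrome c, and complex IV, cytochrome c oxidase, hands them to oxygen, while complexes I, III and IV pump protons whose return through the ATP synthase drives the making of ATP. Most subunits are made in every tissue in amounts that follow its demand for ATP, which is high in heart. Complex IV differs in that several of its small subunits exist as a general form and a more restricted form. The restricted form is found mainly in heart and skeletal muscle (Cox6a2, Cox7a1, Cox8b), in the testis (Cox6b2, Cox7b2, Cox8c) or in the lung (Cox4i2).

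The promoters of the isoforms that the results turn on are shown here, each as 300 bases from 250 before to 50 after the transcription start, from RefSeq on GRCm38.p6, 5′ to 3′ on the strand of the gene. Of the 84 members 66 were matched to the promoter table, with 71 windows. Capitals mark exact matches, on either strand, to any of 6 motifs. These were GCGCATGCG for nuclear respiratory factor 1 (NRF1), TCAAGGTCA for the estrogen-related receptors (ERR), CCGGAAGT for GABP, AAGATGGCG for YY1, CTATTTTTA for the muscle factor MEF2 and the E-box CAGCTG. The MEF2 motif and the E-box were added after the values of the muscle isoforms had been seen. Cox7a1 and Cox8b are muscle forms, Cox7a2, Cox8a and Cox6a1 are general forms of the same subunits, and Cox6b2 is the testis form that differed most between genotypes outside the testis.
Cox7a1, chr7:30183921-30184220, plus strand: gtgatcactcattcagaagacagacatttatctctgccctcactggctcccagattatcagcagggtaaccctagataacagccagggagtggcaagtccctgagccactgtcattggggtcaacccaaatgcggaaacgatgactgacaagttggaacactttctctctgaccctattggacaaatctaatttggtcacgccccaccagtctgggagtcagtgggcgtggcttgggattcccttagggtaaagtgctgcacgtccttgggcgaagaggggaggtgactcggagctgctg
Cox7a2, chr9:79759804-79760103, minus strand: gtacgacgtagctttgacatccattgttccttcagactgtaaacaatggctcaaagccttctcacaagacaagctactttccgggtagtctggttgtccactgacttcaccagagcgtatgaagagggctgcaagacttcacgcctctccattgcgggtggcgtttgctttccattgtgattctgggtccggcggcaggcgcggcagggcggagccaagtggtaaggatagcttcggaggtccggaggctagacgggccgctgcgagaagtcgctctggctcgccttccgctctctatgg
Cox8b, chr7:140900397-140900696, minus strand: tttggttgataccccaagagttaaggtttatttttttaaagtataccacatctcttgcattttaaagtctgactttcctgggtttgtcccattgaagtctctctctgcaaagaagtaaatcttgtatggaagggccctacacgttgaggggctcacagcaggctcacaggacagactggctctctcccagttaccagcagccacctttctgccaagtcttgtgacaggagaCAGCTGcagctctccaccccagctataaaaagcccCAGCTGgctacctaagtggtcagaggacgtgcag
Cox8a, chr19:7217567-7217866, minus strand: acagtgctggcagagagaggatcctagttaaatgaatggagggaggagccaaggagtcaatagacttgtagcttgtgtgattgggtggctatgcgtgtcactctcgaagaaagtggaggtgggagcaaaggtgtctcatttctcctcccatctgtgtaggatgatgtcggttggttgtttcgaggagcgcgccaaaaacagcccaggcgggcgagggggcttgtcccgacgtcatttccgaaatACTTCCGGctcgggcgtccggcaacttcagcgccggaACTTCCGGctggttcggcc
Cox6a1, chr5:115348909-115349208, minus strand: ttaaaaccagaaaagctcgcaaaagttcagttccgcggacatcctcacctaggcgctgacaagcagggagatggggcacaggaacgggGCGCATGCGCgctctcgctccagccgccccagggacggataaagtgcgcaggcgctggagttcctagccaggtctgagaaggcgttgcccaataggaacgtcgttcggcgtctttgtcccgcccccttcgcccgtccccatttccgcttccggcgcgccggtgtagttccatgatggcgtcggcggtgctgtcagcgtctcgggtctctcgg
Cox6b2, chr7:4753045-4753344, minus strand: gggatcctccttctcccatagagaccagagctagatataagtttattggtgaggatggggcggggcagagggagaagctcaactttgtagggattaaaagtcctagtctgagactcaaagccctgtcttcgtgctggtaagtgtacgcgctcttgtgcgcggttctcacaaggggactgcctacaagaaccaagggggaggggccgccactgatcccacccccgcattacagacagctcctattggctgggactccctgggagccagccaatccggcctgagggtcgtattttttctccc

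In the Cox8b window the E-box stood at bases -19 and 17, counted from the start site as base 1. The Cox8a window held the GABP motif on the other strand at -6 and 32, and the Cox6a1 window held NRF1 matches on both strands at -162 and -161, which overlap because the motif is nearly its own reverse complement. None of the 6 motifs was found in these windows of Cox7a1, Cox7a2 and Cox6b2. Over the 71 member windows, NRF1 was found in 8 (11.3%, against 1.75% of all 32851 windows in the table) and YY1 in 7 (9.86% against 1.40%). GABP was found in 5 (7.04% against 3.89%), ERR in 2 (2.82% against 0.423%), the E-box in 6 (8.45% against 16.3%) and MEF2 in 0 (against 0.493%). These are counts of letters in a window and not of bound sites. Cox6a2 is named only.

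Among wild-type tissues the members were highest in heart, where their FPKM added up to 12.7% of all FPKM, with a median member at 678 FPKM. They made up 2.82% in prostate and 2.78% in liver. Eyes followed at 2.50%, MEFs at 2.00%, spleen at 1.62% and testes at 1.45%. Prostate and liver lie too close to order, because with the genes of the mitochondrial genome left out of the total liver stood at 3.29% and prostate at 3.09%. Within the heart total, 3.67% of all FPKM came from the ATP synthase, 3.61% from complex IV, 3.53% from complex I, 1.45% from complex III and 0.393% from complex II. The 4 genes of complex II, which is also an enzyme of the citric acid cycle, were the smallest part in each tissue.

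**Figure D1:**
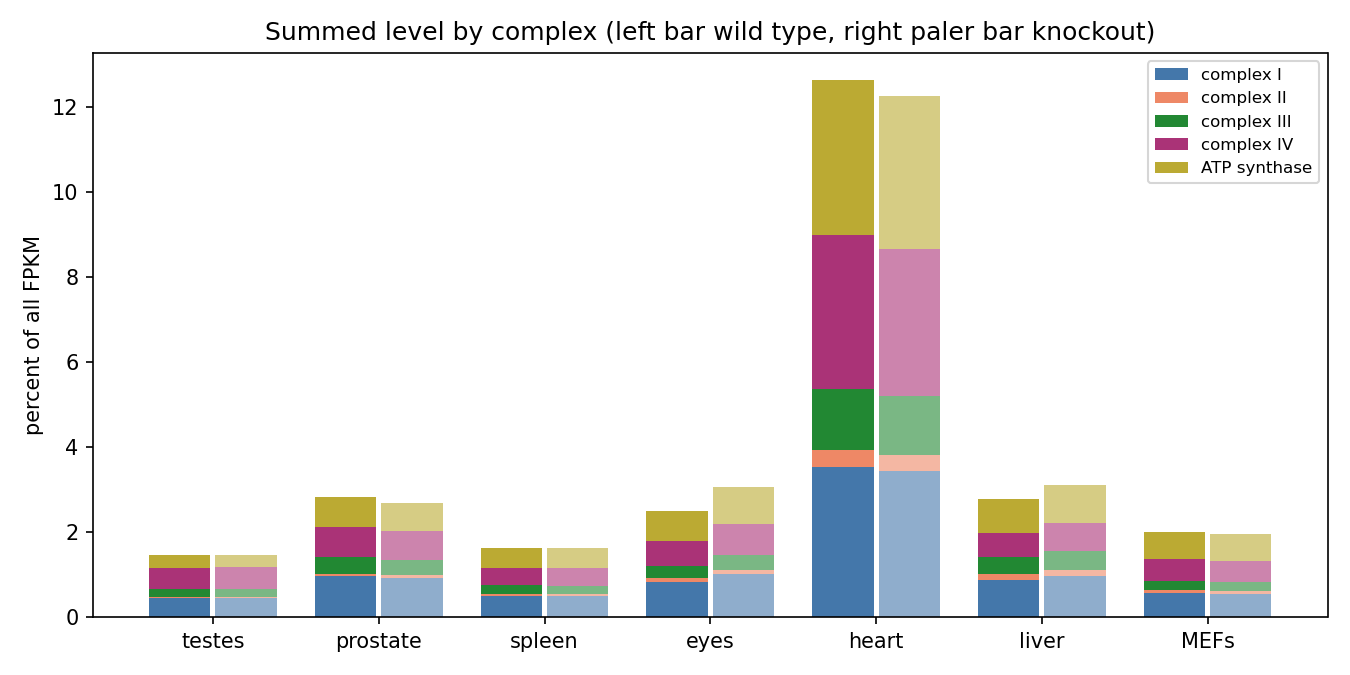
Summed FPKM of the members as a percentage of all FPKM, by tissue and stacked by complex, with the wild type in the left bar and the knockout in the right, paler bar of each pair. Heart stood at 12.7% and 12.3%, and the widest relative gap between genotypes was in eyes, at 2.50% and 3.07%.

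In eyes the knockout total was 3.07% of all FPKM against 2.50% in the wild type, and without the mitochondrial genome's genes 3.53% against 2.91%. The liver total was 3.11% against 2.78%, but without those genes, several of which are listed at 0 in the knockout alone, it was 3.42% against 3.29%. Elsewhere the knockout and wild-type totals lay close together, at 1.47% and 1.45% in testes, 2.69% and 2.82% in prostate, 1.63% and 1.62% in spleen, 12.3% and 12.7% in heart, and 1.96% and 2.00% in MEFs. Most genes of the mitochondrial genome lacked usable values in heart as well, and without them the heart totals were 13.8% and 13.9%. In the whole organs, fewer cells of a type and less RNA per cell cannot be told apart in any of these values.

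Gene by gene, the clearest shift was again in eyes. There 78 of 82 members (95.1%) were higher in the knockout, against 43.5% of all 14453 genes, and the median change was 0.31, which is 1.24-fold, against -0.024 for all genes and -0.0049 for genes of at least 10 FPKM. In prostate and MEFs most members were slightly lower. In prostate 4 of 79 members were higher in the knockout, against 39.5% of all genes, with a median change of -0.12 against -0.039. In MEFs 12 of 78 were higher, against 49.7% of all genes, with a median of -0.12 against -0.0014.

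In testes, heart and liver the median of the members stayed near that of all genes, though in testes fewer members were higher. Testes had 16 of 81 members (19.8%) higher against 36.5% of all genes. The testes median of -0.068 lay between those of all genes (-0.060) and of genes of at least 10 FPKM (-0.090). In heart 57 of 82 were higher against 58.2%, with a median of 0.032 against 0.028. Liver had 35 of 79 higher against 45.6%, with a median of -0.0089 against -0.017, a sign that turned when the median of all genes was taken as 0. Spleen stood slightly above, with 51 of 80 (63.7%) higher against 45.5% and a median of 0.055 against -0.018. Centred on the median of all genes, the spleen median was 0.073 and the prostate median -0.077.

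Large differences were few. Past 1.5 times, the higher members were 3 in eyes (2.79% of all genes), 1 in prostate (2.76%), 1 in spleen (5.15%), 1 in liver (2.80%), and none in testes (1.36%), heart (0.925%) or MEFs (1.15%). Lower members past 1.5 times were 2 in MEFs (2.50% of all genes) and none in testes (0.961%), prostate (0.793%), spleen (1.27%), eyes (0.948%), heart (1.76%) or liver (2.47%). Among the higher members, Cox8b in prostate (0.495 and 1.01 FPKM) and Cox6b2 in liver (0.653 and 8.01 FPKM) passed the filter through their knockout values alone. Of the members, 3.66% were higher past the limit in eyes and 2.56% lower in MEFs, both near the share of all genes. In prostate, spleen and liver the share of higher members was below that of all genes. Counted by gene and tissue, all 8 entries past the limit are tissue-restricted isoforms of complex IV. The entries come from only 4 genes, Cox6a2, Cox6b2, Cox7a1 and Cox8b. They lie on chromosome 7 of mm10, as do 9 of the 84 members, which was noticed after the values had been seen: Cox6b2 at chr7:4751792-4753094, Cox7a1 at chr7:30184144-30186078 on the plus strand, Cox6a2 at chr7:128205435-128206387 and Cox8b at chr7:140898945-140900446, with all but Cox7a1 on the minus strand.

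**Figure D2:**
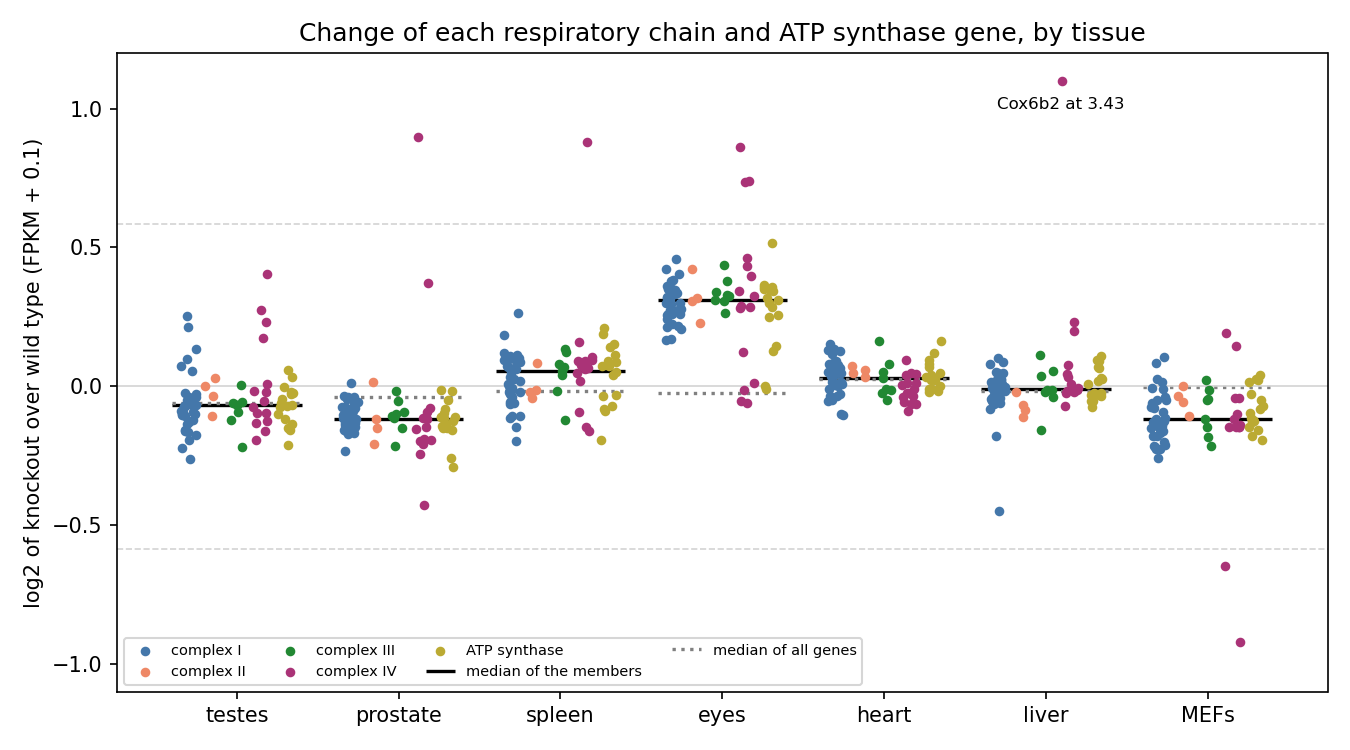
Change of each member with at least 1 FPKM in either genotype (log2 of knockout over wild type, 1 point per gene) by tissue and complex. Black lines are medians of the members, dotted lines medians of all genes and dashed lines the 1.5-fold limits. In eyes the 5 complexes lie together around 0.31, and Cox6b2 in liver, at 3.43, is drawn at the top edge.

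The eyes were examined complex by complex. Complex I had a median change of 0.30, and all 37 of its members were higher in the knockout, from 0.17 to 0.46. Complex II stood at 0.31 with 4 of 4 higher, complex III at 0.33 with 8 of 8, complex IV at 0.31 with 13 of 16 and the ATP synthase at 0.31 with 16 of 17. Altogether 60 of 82 members lay within 0.1 of the common median, so the shift was spread over the complexes.

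The 5 core subunits chosen as examples differed by a similar amount in eyes. Ndufs1, which carries iron-sulfur clusters of complex I, was at 39.2 FPKM in the wild type and 49.0 in the knockout (change 0.32). Sdha, which oxidises succinate in complex II, was at 114 and 134 (0.23), and Uqcrc1, a core protein of complex III, at 90.2 and 112 (0.31). Cox4i1, the general form of a regulatory subunit of complex IV, was at 287 and 350 (0.29), and Atp5b, the catalytic beta subunit of the ATP synthase, at 488 and 583 (0.26).

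The largest differences in eyes were those of the heart and muscle isoforms. Cox7a1 stood at 110 FPKM in the wild type and 199 in the knockout (change 0.86), Cox6a2 at 100.3 and 168 (0.74), and Cox8b at 154 and 256 (0.74). Their general partners differed less: Cox7a2 was at 98.2 and 120 (0.29), Cox6a1 at 138 and 140 (0.012), and Cox8a at 225 and 216 (-0.059). Thus within each pair or trio the muscle form took a larger share of the FPKM in the knockout, 54.6% against 42.03% for Cox6a2, 62.4% against 52.7% for Cox7a1 and 54.3% against 40.6% for Cox8b. A share within a family does not depend on how the libraries were scaled.

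Added over their isoforms, the Cox6a and Cox8 families differed by about as much as the rest of the chain. The Cox6a sum was 239 FPKM in the wild type and 307 in the knockout (0.36), and the Cox8 sum 379 and 473 (0.32), both near the member median, although the general forms alone were close to equal. The Cox7a sum was at 208 and 319 (0.62). Beyond the muscle forms, the next largest was Atp5g1 at 153 and 219 (0.52), 1 of 3 genes for the same mature c subunit of the ATP synthase, whose other genes stood at 0.32 (Atp5g3, 261 and 326) and 0.13 (Atp5g2, 52.2 and 57.0).

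At the other end in eyes, Cox8a, Cox4i2, the lung form (12.2 and 11.8 FPKM, -0.053), and Cox6b2 (17.4 and 17.2, -0.011) were the 3 lowest changes. The named members that are not subunits were also near 0, with Atp5s at -0.011 and Atp5sl at 0.0017, while Cox7a2l, the factor for supercomplexes, was at 0.12. Across the 82 members, the change in eyes went with how heart-enriched a gene was, taken as the wild-type heart level over the median of spleen, liver and MEFs (Pearson r = 0.75, Spearman rho = 0.50). Among the 73 members left after dropping restricted isoforms and non-subunits, r was 0.72 and rho 0.44. The 73 still held the general forms Cox6a1 and Cox8a, the least heart-enriched of the set (-0.89 and -0.38 on the log2 scale). Their changes in eyes were 0.012 and -0.059, and how far r and rho rest on them was not tested. The correlations describe genes within 1 comparison of 2 pooled values, and the genes share libraries, scaling and normalization by length.

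Cell type markers also differed between the eyes of the 2 genotypes. All 11 skeletal muscle genes were higher in the knockout, 10 of them past 1.5 times, with a median change of 0.83, and their FPKM summed to 3432 in the wild type and 6180 in the knockout, 1.8-fold. Acta1, skeletal actin, was at 276 and 551, Ckm, muscle creatine kinase, at 248 and 455, and Tnnt3, a fast troponin, at 556 and 1002. None of the 11 was at 0, and the lowest, Myh2, was at 19.1 and 25.6. The muscle forms of complex IV thus differed by nearly as much as the skeletal muscle genes, and other members by less.

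Adipocyte genes were higher by more (4 of 4, sum 92.5 and 300.3 FPKM, median change 1.63), and cornea genes were lower (3 of 3 past 1.5 times, sum 1338 and 855, median -0.64). Of 3 brown adipocyte genes only 1 reached 1 FPKM, and it was higher (0.99), with sums of 2.82 and 4.99 FPKM for the list. Both hemoglobin and heme synthesis genes that reached 1 FPKM were higher as well, Hbb-bt at 25.8 and 88.8 and Alas2 at 4.81 and 13.8. The main cells of the eye differed little. Photoreceptor genes were lower in 6 of 6, with a median of -0.11 and sums of 8085 and 7656 FPKM, retinal neuron genes had a median of -0.12, lens genes of 0.039 and pigment cell genes of 0.0086. The part of these cell types in the higher level of the members in eyes was not tested.

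**Figure D3:**
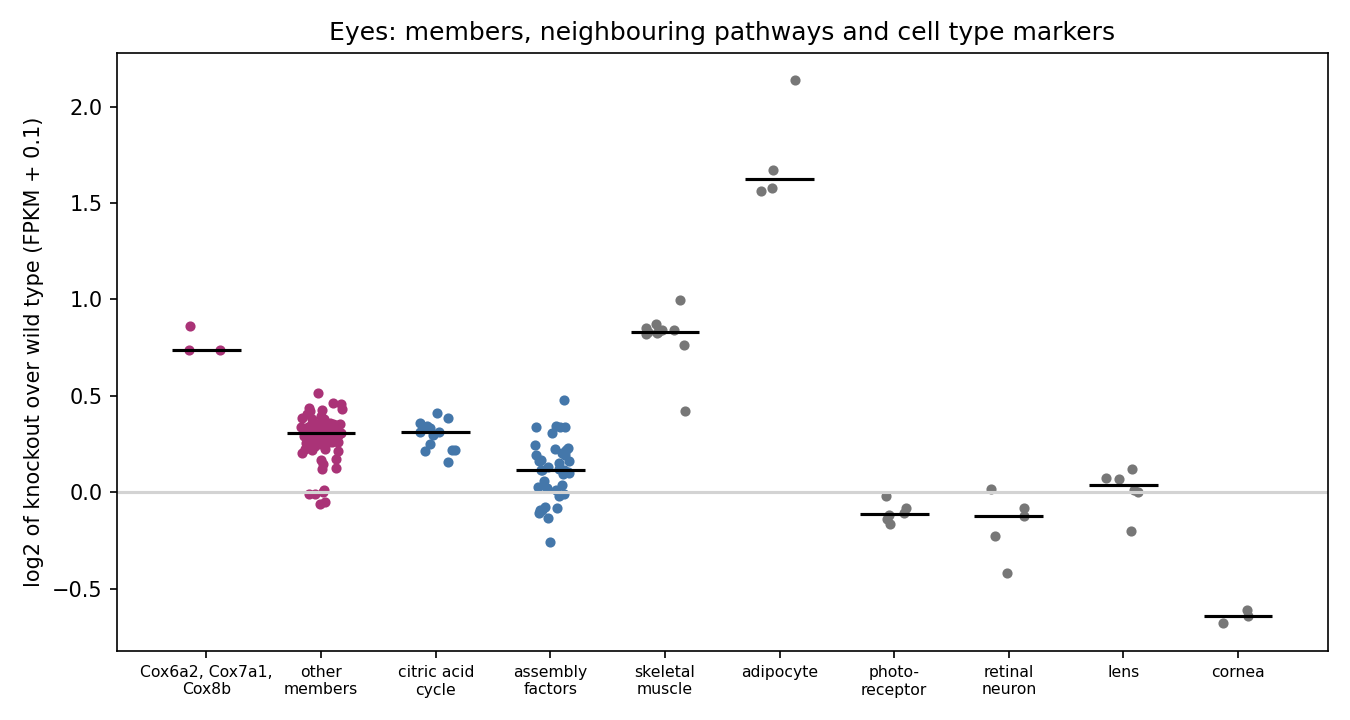
Change in eyes (log2 of knockout over wild type, 1 point per gene, black lines medians) for the 3 muscle isoforms, the other members, 2 neighbouring pathways and 6 marker lists. The muscle isoforms lie beside the skeletal muscle genes (median 0.83), the other members lie beside the citric acid cycle (0.31), and the photoreceptor genes lie at -0.11.

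Neighbouring parts of the pathway were followed as lists. In eyes all 13 citric acid cycle genes were higher in the knockout (median 0.31, from 0.16 to 0.41), and so were 30 of 39 assembly factors, with a smaller median of 0.12. Of 16 electron carriers and coenzyme Q enzymes 14 were higher (median 0.23), and only Adck3, a kinase-like protein for coenzyme Q synthesis, passed 1.5 times, at 47.2 and 83.2 FPKM (0.82). Cycs, the somatic cytochrome c, was at 19.2 and 27.4 (0.51), and Cyc1 at 76.6 and 96.8 (0.34). Of 7 nucleotide carriers, porins and the synthase inhibitor all were higher, led by Slc25a4, the ADP/ATP carrier that is the main form in heart and muscle, at 297 and 404 (0.44), whereas its widely expressed counterpart Slc25a5 stood at 145 and 147 (0.021).

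Outside eyes these lists held 1 member past 1.5 times in each of 2 tissues. In liver Adck3 was lower, at 382 and 255 FPKM (-0.59), and in heart the testis cytochrome c gene Cyct was at 0.280 and 1.0 (1.53). Cyct passed the filter in heart through its knockout value alone. Median changes of the assembly factors ran from -0.077 in prostate to 0.070 in heart, and those of the citric acid cycle from -0.063 in prostate to 0.10 in heart. In prostate and MEFs, where the members had a median of -0.12, the citric acid cycle stood at -0.063 and -0.0032 and the assembly factors at -0.077 and -0.0085.

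In testes the testis forms of complex IV made up nearly all of their families. Cox6b2 held 93.2% of the Cox6b FPKM in the wild type, Cox7b2 98.5% of Cox7b and Cox8c 95.8% of Cox8, and in no other tissue was the share of Cox6b2 above 7.14%. Each was slightly lower in the knockout. Cox8c was at 897 and 801 FPKM (change -0.16), Cox6b2 at 602 and 526 (-0.19) and Cox7b2 at 365 and 341 (-0.094).

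Their general partners, which are far lower in this organ, were slightly higher. Cox6b1 was at 43.6 FPKM in the wild type and 51.2 in the knockout (0.23), Cox8a at 39.1 and 44.1 (0.17) and Cox7b at 5.46 and 6.63 (0.27). The shares of the testis forms were accordingly 91.1% for Cox6b2, 98.1% for Cox7b2 and 94.8% for Cox8c in the knockout. Ndufa4, at 36.9 and 44.0 (0.25), and its relative Ndufa4l2, at 34.2 and 29.9 (-0.19), differed in opposite directions as well, so that Ndufa4 held 51.9% of the pair in the wild type and 59.5% in the knockout. Testes were also the tissue with the largest share of Ndufa4l2.

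The 3 members on the X chromosome were all higher in knockout testes, namely Cox7b, Ndufa1 and Ndufb11, with a median change of 0.21, whereas 13 of 78 autosomal members were higher. This split was noticed after the values had been seen. In the other tissues the X-linked median ran from -0.15 in MEFs to 0.30 in eyes and lay within 0.1 of that of the autosomal members. The highest change in testes was that of Cox7a1 (3.56 and 4.75 FPKM, 0.41), followed by Cox7b and Ndufa4, and the lowest were Ndufs7 (34.5 and 28.8, -0.26), Ndufb2 (55.4 and 47.6, -0.22) and Uqcrc1 (205 and 176, -0.22).

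Cell type markers of the testis split the same way. All 6 spermatid genes were lower in the knockout (median -0.21, sum 40620 and 34818 FPKM), and 3 of 4 spermatocyte genes were lower (median -0.065). All 5 Sertoli genes (median 0.36, sum 83.7 and 105) and all 5 Leydig genes (median 0.40, sum 949 and 1366) were higher. None of the genes on these lists was at 0. The carriers behaved alike, with the testis form Slc25a31 at 44.1 and 42.9 (-0.041) and the somatic Slc25a5 at 30.0 and 36.4 (0.28), as did cytochrome c, with Cyct at 125 and 121 (-0.050) and Cycs at 12.1 and 14.6 (0.27). The part of the cell types in these differences was not tested.

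**Figure D4:**
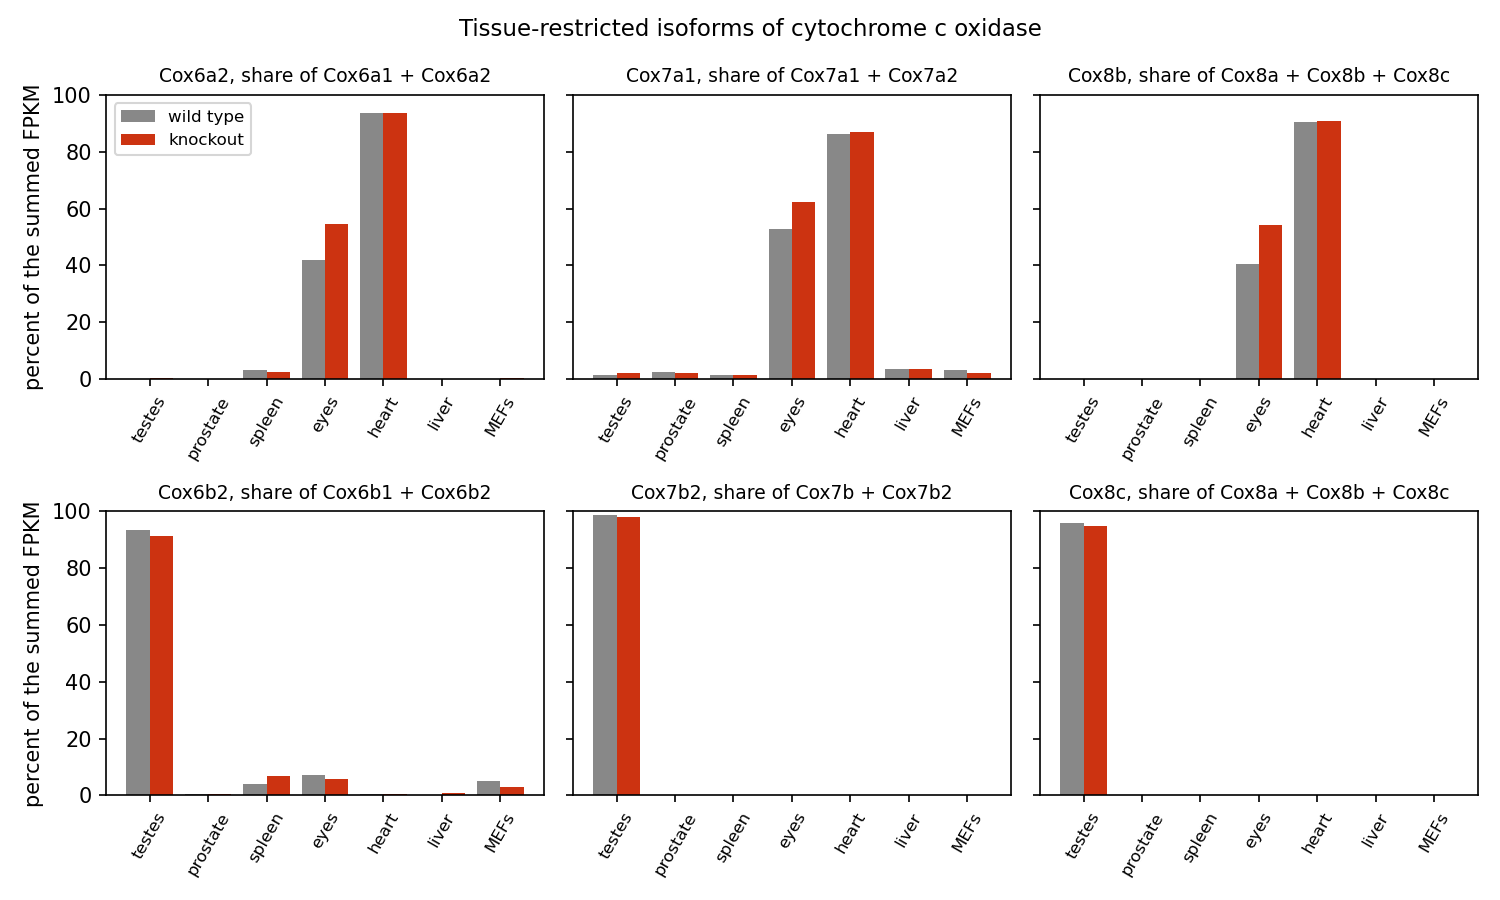
Share of each restricted complex IV isoform in the summed FPKM of its family, in percent, for wild type (grey) and knockout (red) in each tissue. The muscle forms in the upper row stand between 86.4% and 93.7% in wild-type heart and are higher in knockout than in wild-type eyes, and the testis forms in the lower row are above 90% in testes of both genotypes.

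Away from the testis, Cox6b2 was the member that differed most between genotypes, in both directions. In liver it was at 0.653 FPKM in the wild type and 8.01 in the knockout (change 3.43), so that it passed the filter through its knockout value alone and no liver member was past 1.5 times from 10 FPKM up, and in spleen at 9.47 and 17.5 (0.88). In MEFs it was lower, at 18.9 and 9.95 (-0.92). In eyes, heart and prostate it stood at 17.4 and 17.2, 6.30 and 6.02, and 2.24 and 2.93. Cox6b1 was at 226 FPKM or more in each of these tissues and genotypes, so the share of Cox6b2 reached at most 0.959% in knockout liver and 6.76% in knockout spleen. None of the 6 spermatid genes reached 1 FPKM in liver, spleen or MEFs.

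The difference of opposite sign in MEFs and liver rests on 1 pooled value for each genotype and tissue, and whether it is larger than the spread between samples is unknown.

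In spleen the remaining members stayed within a narrow range. After Cox6b2, the highest were Ndufb9 (97.5 and 117 FPKM, 0.26) and Atp5g1 (70.1 and 81.0, 0.21), and the lowest Ndufs8 (46.0 and 40.2, -0.20), Atp5sl (30.8 and 26.9, -0.19) and the muscle form Cox6a2 (5.23 and 4.68, -0.16). Cox6a2 made up 3.07% of its family in wild-type spleen, the largest share outside heart and eyes. In the knockout spleens pancreas acinar genes were also far higher (4 of 4 genes, sum 17.8 and 1714 FPKM, with Ctrb1, chymotrypsinogen, at 1.0 and 635), erythroid genes were higher (4 of 4, sum 2092 and 3627) and B cell genes were lower (4 of 4, sum 1489 and 1191). Their part in the spleen values was not tested.

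Liver held the members closely together, with 67 of 79 within 0.1 of the median. Next to Cox6b2, Cox8a (594 and 699 FPKM, 0.23) and Cox7a1 (12.4 and 14.3, 0.20) were highest. Lowest were Ndufa4l2 (2.59 and 1.87, -0.45), Ndufb3 (125 and 111, -0.18) and Uqcrc2 (390 and 350, -0.16). All 4 genes of complex II were lower in the knockout, with a median of -0.077.

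In heart, the tissue with the highest levels, 73 of 82 members lay within 0.1 of the median and the whole list ran from -0.10 to 0.16. The 3 highest changes were Atp5g1 (2293 and 2569 FPKM, 0.16), Uqcrc1 (787 and 882, 0.16) and Ndufs7 (507 and 563, 0.15), and the 3 lowest Ndufa1 (795 and 740, -0.10), Ndufb2 (381 and 356, -0.099) and Cox8a (267 and 251, -0.090). The muscle forms made up most of their families in both genotypes, at 93.7% and 93.6% for Cox6a2, 86.4% and 87.0% for Cox7a1, and 90.4% and 90.8% for Cox8b. Their levels were at 2532 and 2539 FPKM for Cox6a2, 4020 and 4293 for Cox7a1, the highest member of any tissue, and 2509 and 2466 for Cox8b.

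In knockout heart 9 of 11 skeletal muscle genes were lower past 1.5 times, such as Tnnt3 at 30.3 and 0.786 FPKM. The part of skeletal muscle in the heart values of the members was not tested. The sum of the skeletal muscle list, which Ckm dominates in heart, was 1410 and 1407, and that of the cardiomyocyte list 40850 and 41491. Of 4 erythroid genes only Hbb-bt was higher (827 and 3062) and 3 were lower, with a median change of -0.17. In the adipocyte list 3 of 4 genes were lower past 1.5 times.

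In prostate the lower level was shared by all complexes, with medians from -0.15 in complex IV to -0.10 in complex III, and 75 of 79 members were lower. Cox4i1 was at 717 and 605 FPKM (-0.24) and Atp5b at 725 and 653 (-0.15), whereas Ndufs1 (21.7 and 21.9) and Sdha (71.3 and 72.2, 0.016) were close to equal. The lowest changes were Cox7a1 (4.51 and 3.33, -0.43), Atp5sl (18.7 and 15.3, -0.29) and Atp5k, subunit e of the ATP synthase (284 and 238, -0.26). Besides Sdha, the highest were Cox8b (0.495 and 1.01, 0.90) and Cox6b2 (0.37), both at low levels, and Cox8b passed the filter through its knockout value alone.

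Prostate epithelium genes summed to 25929 FPKM in the wild type and 22060 in the knockout, with 4 of 6 lower and Sbp at the lowest level (0.831 and 1.15). Adipocyte genes were higher in 4 of 4, with sums of 44.3 and 145, and fibroblast genes in 5 of 5, with sums of 64.1 and 79.0. Their part in the lower level of the members was not tested. This tissue rests on 2 knockout samples.

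MEFs showed a small lower level in most members, with medians of -0.13 in complex I, -0.14 in complex IV, -0.098 in the ATP synthase, -0.083 in complex III and -0.046 in complex II. Cox7a1 (3.34 and 2.10 FPKM, -0.65) and Ndufv3 (74.1 and 61.9, -0.26) were lowest after Cox6b2. The highest were Cox5b (147 and 168, 0.19), Cox5a (146 and 162, 0.15), both structural subunits of complex IV, and Ndufb2 (56.3 and 60.6, 0.11). Core subunits other than Cox4i1 (354 and 326, -0.12) were close to equal, with Atp5b at 629 and 638, Ndufs1 at 31.1 and 31.7, Sdha at 65.2 in both and Uqcrc1 at 103 and 102. Smooth muscle genes summed to 6075 and 5535 FPKM and fibroblast genes to 3965 and 3590.

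Complexes I, III and IV and the ATP synthase each join nuclear subunits with subunits encoded by the mitochondrial genome, which were followed as a separate list. In MEFs all 12 mitochondrial genes with a usable level were lower in the knockout, 5 of them past 1.5 times, with a median of -0.52. They ran from mt-Atp8, a subunit of the ATP synthase (7047 and 5416 FPKM, -0.38), to mt-Nd4, a membrane subunit of complex I (1582 and 855, -0.89). The mitochondrial genes were therefore further from equal in MEFs than the nuclear members, whose median was -0.12. Of the 13 genes on the list mt-Nd4l, which overlaps mt-Nd4, was below 1 FPKM wherever it had a usable value, and mt-Atp6 and mt-Atp8 overlap, so the genes are not independent. The sum of the list was 37517 in the wild type and 26655 in the knockout.

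In testes all 12 were higher in the knockout (median 0.096), in prostate 11 of 12 were lower (-0.046), and in liver all 8 usable genes were lower (-0.13). In eyes and spleen the list split into 2 groups. In eyes 8 genes for complex I, cytochrome b and mt-Co2 were higher, from 0.31 to 0.44, as the nuclear members were, while mt-Co3, mt-Atp6 and mt-Atp8 were lower, at -0.23, -0.34 and -0.28. In spleen mt-Co1, mt-Co3, mt-Atp6 and mt-Atp8 were higher, at 0.39, 0.35, 0.33 and 0.35, and the other 8 were lower, from -0.28 to -0.15.

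The same genes were those that the deposited table most often lists at 0. With too few usable data by the table's own mark, mt-Co1 is listed at 0 in knockout eyes (5628 FPKM in the wild type) and in both genotypes of liver, and mt-Co3, mt-Atp6 and mt-Atp8 are listed at 0 in knockout liver. In heart only mt-Nd2 (8181 and 7108 FPKM, -0.20) and mt-Nd3 (45860 and 37768, -0.28) had usable values in both genotypes. No fold is given for these entries, and the mitochondrial genes of heart and liver were compared only in part. None of the 588 entries of the nuclear members carried this mark.

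**Figure D5:**
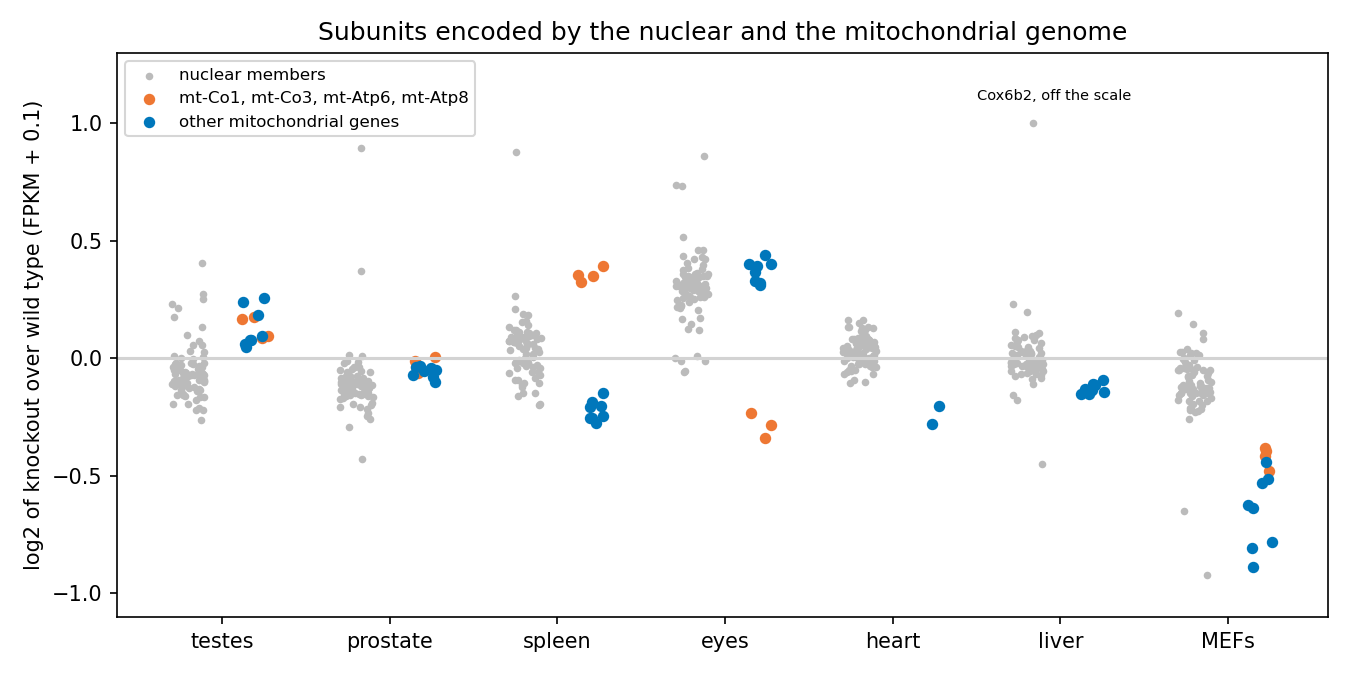
Change of the nuclear members (grey) and of mitochondrially encoded subunits with usable values (orange for mt-Co1, mt-Co3, mt-Atp6 and mt-Atp8, blue for the others), as log2 of knockout over wild type, by tissue, with 1 point per gene. In MEFs the mitochondrial genes lie at -0.38 or lower, and in eyes and spleen the orange and blue points lie on opposite sides of 0.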

How the data were processed

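The authors deposited FPKM values in 1 table, made per the submitters' processing notes with CASAVA 1.8.2, TopHat2 and Cuffdiff on mm10, with the samples of a genotype and tissue combined. The unit was read from the table's layout, since its header does not name it. Its columns of fold changes, test statistics and p-values for knockout against wild type hold the authors' own comparisons and were not used. Because of this, and since no values per mouse were used, no test was made and a group's n is only the number of samples behind a value. 2 groups of the table, from adult brain, match no sample label and were not analysed here.

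Changes, medians, counts and shares were computed in Python 3.11.15 with pandas 2.3.3 and numpy 2.4.6, with a pseudocount of 0.1 and a minimum of 1 FPKM, and checked on simulated data. The kit does not mark strand, so reads from overlapping genes cannot be told apart, and many members have processed pseudogenes that can share reads. The members, lists, motifs and limits were chosen with earlier results of these data known. Named genes were members past 1.5 times, the 3 highest and lowest changes per tissue, 5 core subunits and the isoform families, and other genes are named as examples of their list. Gene positions are from GENCODE vM21. Genes marked by the table as having too few data were left out of the lists, but their listed values, 0 included, stayed in the totals of all FPKM. Alternatives were other pseudocounts, filters, limits, centring and totals.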

Additional observations from a re-analysis of the deposited data

How the results depend on the processing

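A median was taken as unmoved within 0.1 on the log2 scale, an isoform share within 1 percentage point, and a count or a percentage of all FPKM within 1.5 times. Of 42 alternative medians 41 stayed with the same sign, and the liver median turned from -0.0089 to 0.0081 when changes were centred on the median of all genes. The tolerance of 0.1 is larger than the main medians of testes, spleen, heart and liver, so for these tissues staying says little. On centring, the testes median went from -0.068 to -0.0074 and the heart median from 0.032 to 0.0039, both counted as unmoved. All 112 isoform shares and all 28 percentages of all FPKM stayed, the latter including a total without the mitochondrial genome's genes, chosen after seeing the data. For the percentages, the limit of 1.5 times is wider than every gap between genotypes, the widest being 2.50% and 3.07% in eyes. It therefore cannot show whether those gaps, or the order of prostate and liver, held.

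Counts of higher members past the limit moved in 15 of 56 cases and of lower members in 6 of 56, all within 3 genes of the reported count except at the lowest limit in eyes. With a pseudocount of 1, prostate had 0 higher and MEFs 1 lower. Without a filter, prostate had 3 higher and liver 2. From 10 FPKM up, prostate and liver had 0 higher and MEFs 1 lower. Without restricted isoforms and non-subunits, prostate, spleen, eyes and liver had 0 higher and MEFs 0 lower, as follows from the 8 entries being restricted isoforms. At a lower limit of 0.32 on the log2 scale, higher members were 1 in testes (5.82% of all genes), 2 in prostate (6.48%) and 34 of 82 in eyes (6.85%), and lower members 1 in prostate (4.59%) and 1 in liver (8.34%). At 2 times, higher members were 0 in prostate (1.07% of all genes), spleen (1.83%) and eyes (0.595%), and 1 in liver (0.926%). Lower members at 2 times were 0 in MEFs (0.409%). Counts under other pseudocounts and filters show only how the reported counts moved, as no share over all genes stands beside them.

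No paired analysis was possible because the table holds 1 value for each genotype and tissue, and for the same reason no sample was left out in turn. The depth behind each value is unknown, and it limits every statement on low genes.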
